A study of Mus musculus with 4 samples.

Results

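The genes followed here are 35 cell cycle genes of mouse optic nerve, 13 whose products act in DNA replication (S phase) and 22 whose products act in G2 and mitosis. They were listed by symbol by their known function, with earlier results of these data already known. Each symbol matched 1 identifier among the 55401 genes of the tables. All 35 passed the filter on low counts, among 16751 genes tested, with expected counts of 59 to 2047 per library. The optic nerve carries retinal axons together with oligodendrocytes, their precursors, astrocytes, microglia, vessels and a meningeal sheath. The series holds polyA RNA libraries of 2 genotypes, 2 of Dor WT and 2 of Dor cKO, the latter a conditional knockout of Dor, a name that is a synonym of Trp53inp2. The Cre driver, strain, sex, age and number of animals behind each library are not given in the sources used here, and no treatment is named. The deposited tables of Dor WT carry an age-like tag in their names and those of Dor cKO do not. A difference in age between the groups could not be told apart from genotype. Nothing says that the libraries of a group came from separate animals, so p-values measure the spread between these libraries, which may be technical.

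Before S phase, the MCM helicase (Mcm2 to Mcm7) is loaded at origins by Cdc6 and Cdt1. It is then activated with the GINS complex, and the sliding clamp Pcna holds the polymerases on DNA. In G2, cyclin A and cyclin B with Cdk1 start mitosis, kinases of the Aurora and Polo families and kinesins build the spindle, and the anaphase-promoting complex with Cdc20 and Ube2c ends it. In young nerve the dividing cells are largely oligodendrocyte precursors, with astrocytes, microglia, endothelial cells and fibroblasts adding to them. Genes of the replication set are textbook targets of E2F factors, and many mitosis genes are repressed in resting cells through an element called the cell cycle genes homology region (CHR), often next to CCAAT boxes bound by NF-Y.

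Promoter sequences are shown first because E2F and CHR elements are the sequence features known for the genes of each phase. RefSeq promoters (GRCm38.p6, 250 bases before to 50 bases after a start site) were at hand for 11 of 13 replication members and 18 of 22 mitosis members. Aurkb, Ccna2, Gins2, Kif20a, Mcm4 and Tpx2 had none in the table. The lines below give Mcm6 and Mcm5, whose promoters hold the E2F word, and Mki67, Cenpf and Top2a, which hold the CHR word. Ccnb1 is added as a member with a clear fall and no match to TTTGAA, the only CHR word searched. Its lack of that word does not show that it lacks a CHR element. Capitals mark matches on either strand to the CHR word TTTGAA, the E2F words TTTCGCGC and TTTGGCGC, and CCAAT, and where E2F matches overlap they run together.

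Mcm6 (chr1:128359656-128359955, minus strand): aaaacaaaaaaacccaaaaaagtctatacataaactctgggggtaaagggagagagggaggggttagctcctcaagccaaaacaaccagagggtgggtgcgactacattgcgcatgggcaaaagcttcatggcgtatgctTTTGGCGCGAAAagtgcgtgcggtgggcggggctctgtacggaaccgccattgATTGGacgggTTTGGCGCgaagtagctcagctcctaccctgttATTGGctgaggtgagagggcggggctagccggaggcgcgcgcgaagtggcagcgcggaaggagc
Mcm5 (chr8:75109259-75109558, plus strand): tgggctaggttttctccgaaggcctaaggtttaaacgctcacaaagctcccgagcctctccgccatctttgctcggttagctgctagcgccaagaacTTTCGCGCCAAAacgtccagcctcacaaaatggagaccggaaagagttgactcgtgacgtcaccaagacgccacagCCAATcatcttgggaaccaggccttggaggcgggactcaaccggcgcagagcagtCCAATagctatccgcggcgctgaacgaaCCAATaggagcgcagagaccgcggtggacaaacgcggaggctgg
Mki67 (chr7:135716330-135716629, minus strand): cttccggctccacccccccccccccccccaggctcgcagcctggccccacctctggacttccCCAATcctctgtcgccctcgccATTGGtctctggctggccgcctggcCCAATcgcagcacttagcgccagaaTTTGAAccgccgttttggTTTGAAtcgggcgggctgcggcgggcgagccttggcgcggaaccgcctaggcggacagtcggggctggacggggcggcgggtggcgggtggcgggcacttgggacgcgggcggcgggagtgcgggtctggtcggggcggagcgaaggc
Cenpf (chr1:189688037-189688336, minus strand): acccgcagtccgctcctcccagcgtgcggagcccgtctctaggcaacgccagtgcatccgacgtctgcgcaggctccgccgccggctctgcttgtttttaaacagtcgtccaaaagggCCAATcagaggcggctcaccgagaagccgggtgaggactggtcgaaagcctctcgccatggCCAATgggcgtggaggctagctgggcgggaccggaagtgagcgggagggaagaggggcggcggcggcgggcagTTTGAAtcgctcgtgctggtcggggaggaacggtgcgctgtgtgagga
Top2a (chr11:99024140-99024439, minus strand): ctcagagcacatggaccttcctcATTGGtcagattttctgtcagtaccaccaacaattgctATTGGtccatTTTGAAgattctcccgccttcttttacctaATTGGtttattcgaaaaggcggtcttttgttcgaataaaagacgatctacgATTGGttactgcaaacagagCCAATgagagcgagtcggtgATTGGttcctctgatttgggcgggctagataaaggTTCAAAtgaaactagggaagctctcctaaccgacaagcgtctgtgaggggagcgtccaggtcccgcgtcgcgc
Ccnb1 (chr13:100786437-100786736, minus strand): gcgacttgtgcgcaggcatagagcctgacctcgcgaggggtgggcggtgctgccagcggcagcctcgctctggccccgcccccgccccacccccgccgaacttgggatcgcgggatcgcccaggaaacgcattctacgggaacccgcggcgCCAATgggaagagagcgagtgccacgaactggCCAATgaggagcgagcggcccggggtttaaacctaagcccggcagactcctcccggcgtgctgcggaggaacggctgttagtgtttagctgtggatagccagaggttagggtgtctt

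An E2F word was found in 6 of 11 replication members (54.5%) and in 1 of 18 mitosis members (5.56%), against 0.929% of all 27025 genes with a promoter in the table (a gene counts when any of its promoters holds the word). The CHR word was found in 13 of 18 mitosis members (72.2%) and in 1 of 11 replication members (9.09%), against 20.2% of all genes. CCAAT was present in 83.3% of mitosis members, 72.7% of replication members and 41.1% of all genes. Mki67 had CHR matches starting 116 and 98 bases before its start site, and Cenpf had 1 match starting at base 3 after it. Among the mitosis members that fell in Dor cKO (below), 4 of 7 held the CHR word, Mki67, Top2a, Cenpf and Prc1. Among those that did not pass the test, 9 of the 11 with a promoter held it. Some of these promoters lie wholly inside the annotated gene and away from its 5' end. They are that of Kif2c, which gave a CHR match, and that of Cdc6, which gave none of the words. Those of Mcm7 and 1 of Uhrf1 also do. Of these, that of Uhrf1 and the Mcm7 promoter at 138171834 to 138172133 gave E2F matches, and the other Mcm7 promoter did not. A match is a run of letters and not a measured site.

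**Figure D1:**
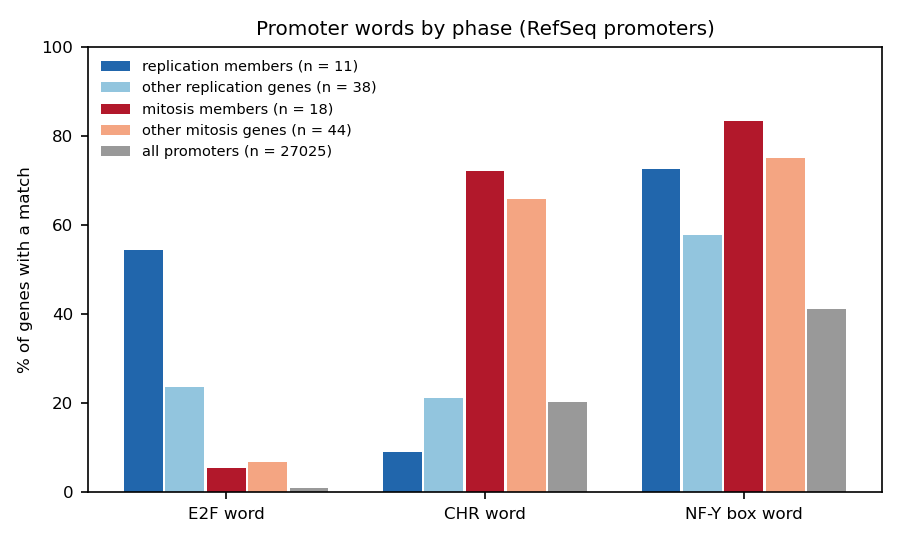
Share of genes (%, vertical axis from 0) whose RefSeq promoter holds the E2F, CHR or NF-Y box word, for replication members, mitosis members, the other genes of each phase and all promoters. The E2F word is most frequent in replication members (54.5%) and the CHR word in mitosis members (72.2%).

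The labels were checked on the targeted gene first. Trp53inp2 (chromosome 2, 155381059 to 155389850 of GRCm38) measured 138 and 134 CPM (counts scaled to a common library size by TMM) across Dor WT versus 105 and 107 CPM across Dor cKO, 1.28-fold lower (log2 difference -0.36, SE 0.04, edgeR adjusted p = 2.73e-08). A count over the whole gene in whole nerve does not by itself check a deletion limited to some exons or cells. Limma on log2(TPM + 1) did not call it (-0.28, adjusted p = 0.0719). Total expected counts were 17263820 to 21595825 per library.

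Among the members, mitosis genes were lower in Dor cKO where a difference passed the test, and replication genes were not. The other lists, given below, held exceptions in both phases: the mitosis gene Cdc25b rose and the replication gene Gmnn fell. Of 22 mitosis members, 7 fell, 0 rose and 15 did not pass, and their median log2 difference was -0.15 (Dor cKO minus Dor WT), or -0.09 after removal of the trend on gene length and GC content. Of 13 replication members, 0 fell, 1 rose and 12 did not pass, and their median was 0.08, or -0.01 by limma on log2(TPM + 1). Over all genes tested, 13.4% fell and 14.3% rose, and the median was 0.00. The share of mitosis members that fell (31.8%) was above that background and the share of replication members that rose (7.69%) was below it. The members were chosen with earlier results of these data known, so these shares are a description and lend no support. Of 53 other mitosis genes, 11.3% fell, close to the share of all genes. Among the members, the falls were Mki67, Top2a, Cenpf, Ccnb1, Nusap1, Birc5 and Prc1, all by less than 1.5-fold, and the rise was Mcm6. These calls are from edgeR's quasi-likelihood test at an adjusted p under 0.05, with 2 libraries per group. No test was made of the difference between the phases, since the genes of a phase are not independent samples. In whole nerve, fewer dividing cells and less RNA per dividing cell cannot be told apart. Differences between the groups in tissue makeup and library measures are given below, and their part was not tested beyond the trend removal.

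With the biological coefficient of variation (the relative spread between true replicates) set at 0.1 in place of the estimated 0.03477, Nusap1 was the 1 mitosis member of 22 still called lower (adjusted p = 0.0444 by edgeR's likelihood ratio test). That setting called 5.32% of all genes lower and 4.2% higher, and Mcm6 was not among them (adjusted p = 0.452). After removal of the trend of fold change on gene length and GC content, 5 mitosis members fell and the replication members Mcm6 and Mcm4 rose, against 11.6% of all genes lower and 14.4% higher. Limma on log2(TPM + 1) called 3 mitosis members lower, Ccnb1, Birc5 and Cdk1, and did not call Mki67 (adjusted p = 0.126) or Nusap1 (adjusted p = 0.117). Over all 16751 genes that limma fit called 738 lower and 690 higher.

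**Figure D2:**
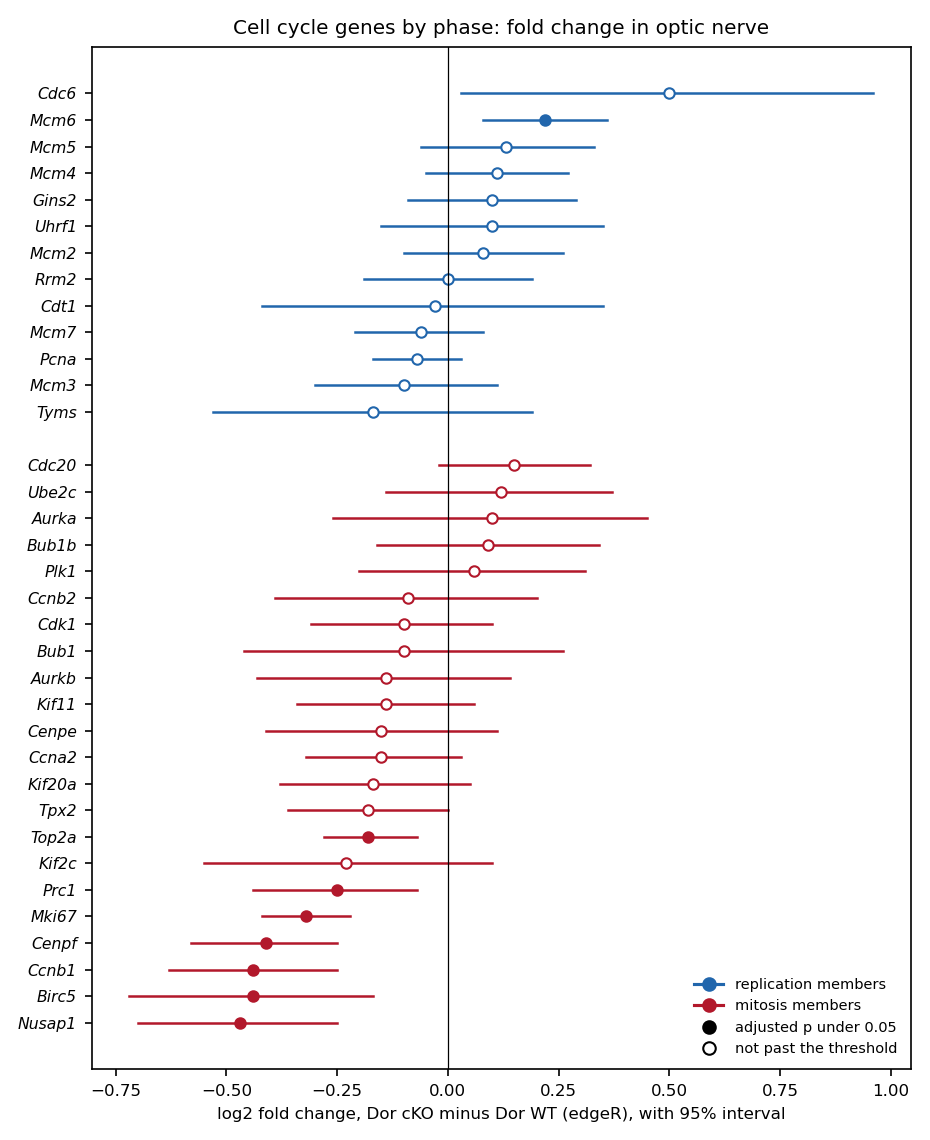
Log2 fold change of each member (Dor cKO minus Dor WT, horizontal axis) with its 95% interval, replication members in blue and mitosis members in red. Filled points passed an edgeR adjusted p of 0.05: 7 mitosis members lie below 0 and Mcm6 lies above 0.

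Summed levels per length are given as a description, without a test. Deposited TPM values (abundance scaled by transcript length, comparable between genes) summed over the 22 mitosis members to 321 and 315 across Dor WT versus 272 and 276 across Dor cKO. Over the 13 replication members the sums were 276 and 269 across Dor WT versus 267 and 258 across Dor cKO. The mitosis sum was lower in both Dor cKO libraries than in either Dor WT library, by more than the gap within a group, and the replication sum also lay lower but by a gap no larger than that within a group. Part of the lower mitosis sum came from Cdk1, at 45.5 and 48 TPM across Dor WT versus 37.2 and 33.4 TPM across Dor cKO. On counts Cdk1 did not pass (-0.10, edgeR adjusted p = 0.506). Mitosis over replication was 1.16 and 1.17 across Dor WT versus 1.02 and 1.07 across Dor cKO. With 2 libraries per group an exact two-sided permutation test cannot go below p = 0.333, and none is given. In CPM, both Dor cKO libraries lay below both Dor WT libraries for 14 of 22 mitosis members and for 3 of 13 replication members, against 30.5% of all genes. Both lay above for 2 mitosis and 5 replication members, against 30.2% of all genes.

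**Figure D3:**
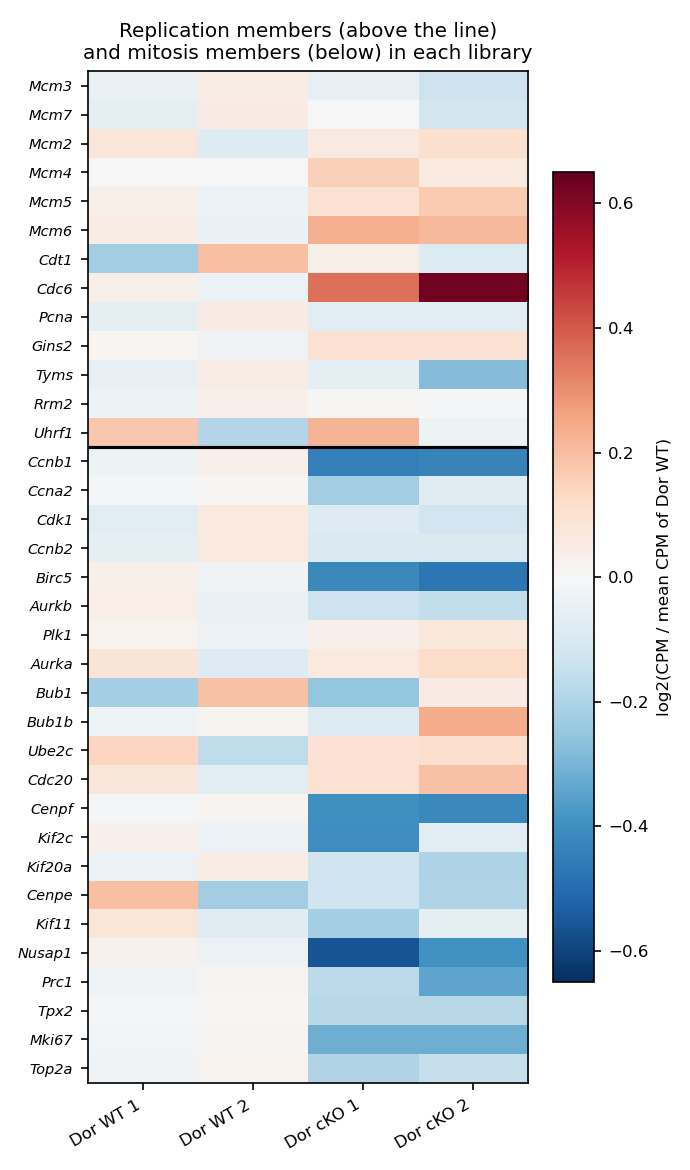
Each member (rows) in each of the 4 libraries (columns), as log2 of its CPM over the mean CPM of Dor WT, with blue lower and red higher. Ccnb1, Birc5, Cenpf, Nusap1 and Mki67 are blue in both Dor cKO libraries, and most rows above the line are pale.

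Among genes of mitotic chromosomes, both members fell, against 13.4% of all genes. Mki67 (chromosome 7, 135689784 to 135716361 of GRCm38), the proliferation marker Ki-67 that coats mitotic chromosomes, had 88.9 and 91.2 CPM across Dor WT versus 72.2 and 72.2 CPM across Dor cKO. Both Dor cKO libraries were below both Dor WT libraries, and log2 expression fell by 0.32 (SE 0.05, adjusted p = 5.88e-06 by edgeR), a 1.25-fold difference. Top2a (chromosome 11, 98992943 to 99024189), the topoisomerase that untangles sister chromatids, had 78.6 and 81.3 CPM across Dor WT versus 69.7 and 71.9 CPM across Dor cKO. It fell by 0.18 (SE 0.05, adjusted p = 0.009), also without overlap. Dropping Dor WT replicate 2 (-0.15, adjusted p = 0.0679) or dropping Dor cKO replicate 1 (-0.15, adjusted p = 0.101) ended the Top2a call. So did DESeq2 (adjusted p = 0.0862) and removal of the length and GC trend (-0.083, adjusted p = 0.261).

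Of the cyclins and their kinase, 1 of 4 genes fell, against 13.4% of all genes. Ccnb1 (chromosome 13, 100778650 to 100786570), the B cyclin that activates Cdk1 at mitotic entry, had 24.4 and 25.6 CPM across Dor WT versus 18.4 and 18.5 CPM across Dor cKO. Its groups did not overlap, and it fell by 0.44 (SE 0.09, adjusted p = 0.000491), 1.36-fold. With the coefficient of variation at 0.1 its adjusted p was 0.058. The related cyclin gene Ccnb2 had 9.33 and 10.2 CPM across Dor WT versus 9.15 and 9.15 CPM across Dor cKO, and its difference of -0.09 (95% interval -0.39 to 0.20) did not pass. Ccna2, which serves S phase and G2, had 28 and 28.3 CPM against 24.1 and 26.7 CPM, a difference of -0.15 (-0.32 to 0.03, adjusted p = 0.219). Cdk1, the kinase itself and at a mean of 41 TPM the most abundant mitosis member per length, had 18.8 and 20.6 CPM across Dor WT versus 18.6 and 18.1 CPM across Dor cKO. That difference of -0.10 (-0.31 to 0.10) did not pass on counts, although limma on log2(TPM + 1) called it (-0.40, adjusted p = 0.0454), from 45.5 and 48 TPM across Dor WT versus 37.2 and 33.4 TPM across Dor cKO. All 4 genes of this role had both Dor cKO libraries below both Dor WT libraries in CPM, as had 30.5% of all genes, and 1 passed the test. The nearest values of the groups were 18.8 (Dor WT) and 18.6 CPM (Dor cKO) for Cdk1. They were 9.33 (Dor WT) and 9.15 CPM (Dor cKO) for Ccnb2.

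In the spindle and kinesin genes, falls were found in 3 of 8, against 13.4% of all genes. Nusap1, which bundles spindle microtubules, showed the steepest fall of all members, from 19.6 and 18.7 CPM (Dor WT) to 13 and 14.6 CPM (Dor cKO), by 0.47 (SE 0.11, adjusted p = 0.0015), 1.39-fold. Prc1, which crosslinks the midzone of the spindle, had 25.7 and 26.4 CPM across Dor WT versus 23.2 and 20.6 CPM across Dor cKO, and fell by 0.25 (SE 0.09, adjusted p = 0.038). Prc1 was no longer called after dropping Dor WT replicate 1 (-0.27, adjusted p = 0.0567), Dor WT replicate 2 (-0.23, adjusted p = 0.132) or, with the smallest difference, Dor cKO replicate 2 (-0.17, adjusted p = 0.355). Removal of the length and GC trend (-0.19, adjusted p = 0.133) and DESeq2 (adjusted p = 0.206) also ended that call. Cenpf (chromosome 1, 189640606 to 189688086), a kinetochore protein that accumulates in G2, had 32.9 and 33.6 CPM across Dor WT versus 25.2 and 24.8 CPM across Dor cKO, a fall of 0.41 (SE 0.08, adjusted p = 0.000169). On TPM the groups of Cenpf overlapped, at 5.62 and 4.9 against 3.53 and 5.02, and limma on log2(TPM + 1) gave -0.26 (adjusted p = 0.451). The other 5 did not pass and had differences below 0: Tpx2, which activates Aurora A (-0.18), the mitotic kinesins Kif20a (-0.17), Kif11 (-0.14) and Kif2c (-0.23), and the kinetochore motor Cenpe (-0.15). Cenpe, at 18.8 and 14 CPM across Dor WT, had a difference of -0.36 (adjusted p = 0.0444) once Dor WT replicate 2 was dropped, and of 0.064 once Dor WT replicate 1 was.

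Of the 4 genes of mitotic kinases and their partner, Birc5 was the 1 that passed the test, against 13.4% of all genes that fell. Birc5, which encodes survivin, a subunit of the chromosomal passenger complex, had 12.7 and 12.2 CPM across Dor WT versus 9.29 and 8.96 CPM across Dor cKO. It fell by 0.44 (SE 0.13, adjusted p = 0.0134), without overlap. Dropping Dor cKO replicate 1 (-0.47, adjusted p = 0.0507), dropping Dor cKO replicate 2 (-0.42, adjusted p = 0.0884) or using DESeq2 (adjusted p = 0.0983) ended that call. Aurkb, the kinase of the same complex, had 10.8 and 10.2 CPM across Dor WT versus 9.57 and 9.39 CPM across Dor cKO, a difference of -0.14 that did not pass (-0.43 to 0.14). Aurka and Plk1, kinases of spindle poles and mitotic entry, differed by 0.10 (-0.26 to 0.45) and 0.06 (-0.20 to 0.31).

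Genes of the spindle checkpoint and of mitotic exit included none that passed. Cdc20, the activator of the anaphase-promoting complex, had 28.8 and 26.1 CPM across Dor WT versus 29.3 and 31.3 CPM across Dor cKO, a difference of 0.15 (-0.02 to 0.32, adjusted p = 0.209). Ube2c, the ubiquitin-conjugating enzyme of that complex, had 15.1 and 12.2 CPM across Dor WT versus 14.6 and 14.8 CPM across Dor cKO, a difference of 0.12 (-0.14 to 0.37), and its groups overlapped. The checkpoint kinase genes Bub1b and Bub1 differed by 0.09 (-0.16 to 0.34) and -0.10 (-0.46 to 0.26). Cdc20 and Ube2c were, after Cdk1, the mitosis members with the highest mean TPM (27.4 and 28.6).

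**Figure D4:**
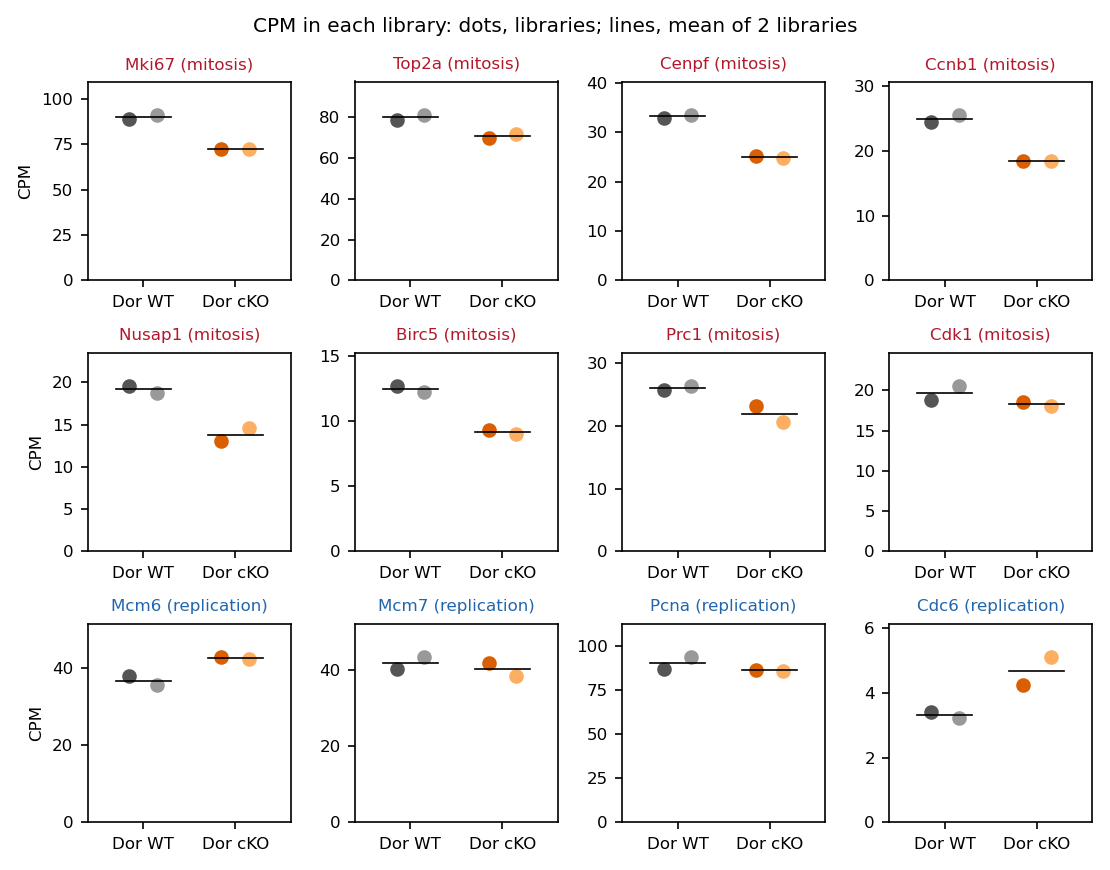
CPM of 12 members in each library (dots; lines are means of 2 libraries; vertical axes from 0), with mitosis members titled in red and replication members in blue. Mki67, Top2a, Cenpf, Ccnb1, Nusap1, Birc5 and Prc1 have both Dor cKO libraries below both Dor WT libraries, and Mcm6 and Cdc6 have them above.

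Of the 6 MCM helicase genes, 1 rose and 5 did not pass, a share of rises (16.7%) close to that of all genes (14.3%). Mcm6 (chromosome 1, 128331590 to 128359664), a subunit of the hexamer, had 37.8 and 35.5 CPM across Dor WT versus 42.9 and 42.3 CPM across Dor cKO. It rose by 0.22 (SE 0.07, adjusted p = 0.0165), 1.17-fold, and its groups did not overlap. The call ended on dropping Dor WT replicate 2 (0.17, adjusted p = 0.127), on dropping Dor cKO replicate 1 (0.21, adjusted p = 0.101), on dropping Dor cKO replicate 2 (0.23, adjusted p = 0.0675) and with DESeq2 (adjusted p = 0.128). Mcm7, the most abundant subunit at a mean of 36.4 TPM, had 40.3 and 43.6 CPM across Dor WT versus 41.9 and 38.6 CPM across Dor cKO, a difference of -0.06 (-0.21 to 0.08). The differences of Mcm2, Mcm4 and Mcm5 were 0.08, 0.11 and 0.13, and that of Mcm3 was -0.10, none past the test. Summed over the 6 subunits, TPM was 110 and 109 across Dor WT versus 109 and 108 across Dor cKO.

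Pcna, the polymerase clamp and at a mean of 102 TPM the most abundant member of either set, had 87.3 and 94.2 CPM across Dor WT versus 86.6 and 86.3 CPM across Dor cKO. Its difference of -0.07 (SE 0.05, 95% interval -0.17 to 0.03, adjusted p = 0.294) did not pass. Gins2, a subunit of the active helicase, had 21.5 and 21 CPM against 22.8 and 22.8 CPM, a difference of 0.10 (-0.09 to 0.29). Its TPM values in the 2 Dor WT libraries, 18.9 and 8.39, were further apart than their CPM values, and its exons share 2758 bases with Gse1 on the opposite strand.

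Neither licensing gene passed, and both had few reads. Cdc6, which loads the helicase, had 3.4 and 3.22 CPM across Dor WT versus 4.24 and 5.11 CPM across Dor cKO, the largest positive difference of any member at 0.50 (SE 0.23), but it did not pass (adjusted p = 0.109). Cdt1, its partner, had 5.12 and 6.86 CPM across Dor WT versus 6.14 and 5.64 CPM across Dor cKO, with groups that overlapped. Nucleotide supply was represented by Rrm2, a subunit of ribonucleotide reductase, and Tyms, thymidylate synthase, which differed by 0.00 (-0.19 to 0.19) and -0.17 (-0.53 to 0.19). Uhrf1, which keeps DNA methylation in place behind the fork, had 19.2 and 14.9 CPM across Dor WT versus 19.8 and 16.6 CPM across Dor cKO, and differed by 0.10 (-0.15 to 0.35). The 95% intervals of 11 of 13 replication members contained 0, the exceptions being Mcm6 and Cdc6, and those of Cdt1 and Tyms still reach falls as large as that of Mki67.

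Beyond the members, of 53 other mitosis genes, 6 fell, 1 rose and the remaining 46 were not called, a share of falls (11.3%) close to that of all genes, with a median of -0.18. Of these, 43 had a difference below 0. Of 49 other replication genes, 1 fell, 1 rose and the remaining 47 were not called, with a median of -0.06 and 31 below 0. The replication median was thus above 0 among the members and below 0 in this longer list. The condensin genes Ncapd2 (51.7 and 52.1 CPM in Dor WT, 45.1 and 45.8 in Dor cKO) and Smc4 (40.1 and 43 against 34.9 and 34.2 CPM) fell by 0.19 (SE 0.06) and 0.27 (SE 0.07). The lamin gene Lmnb1 (53.9 and 50.1 against 44.2 and 46.2 CPM) fell by 0.20 (SE 0.06). Cdc25b, the phosphatase that activates Cdk1, was the 1 gene of the mitosis list that rose, from 31.8 and 30.3 to 38.9 and 34.7 CPM, by 0.25 (SE 0.08). In the replication list Rpa1, which coats single-stranded DNA, rose by 0.22 (SE 0.05), from 63.5 and 62.6 CPM to 71 and 75.6 CPM. Gmnn, the inhibitor of Cdt1, fell by 0.74 (SE 0.23) from 7.83 and 4.65 CPM to 3.62 and 3.76 CPM.

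Each of these 6 calls ended when at least 1 library was dropped. For Gmnn, dropping Dor WT replicate 1 left -0.33 (adjusted p = 0.402), and dropping either Dor cKO library left adjusted p values of 0.0908 (replicate 1) and 0.0663 (replicate 2). For Ncapd2 they were 0.0632 on dropping Dor WT replicate 2, 0.123 on dropping Dor cKO replicate 1 and 0.0753 on dropping Dor cKO replicate 2. Lmnb1 had 0.156 on dropping Dor WT replicate 1 and 0.172 on dropping Dor cKO replicate 1. Dropping Dor WT replicate 2 gave adjusted p = 0.0611 for Smc4 and 0.0867 for Cdc25b. Cdc25b had 0.16 (adjusted p = 0.283) on dropping Dor cKO replicate 1, and Rpa1 had 0.17 (adjusted p = 0.0802) on dropping Dor cKO replicate 2. Removal of the length and GC trend left Smc4 at -0.10 (adjusted p = 0.326). DESeq2 kept Rpa1 (adjusted p = 0.0336) and ended the other 5 calls, with adjusted p values of 0.0846 for Gmnn, 0.139 for Ncapd2, 0.137 for Lmnb1, 0.0579 for Smc4 and 0.123 for Cdc25b. Limma on log2(TPM + 1) called none of the 6, the lowest adjusted p being 0.0712 for Rpa1.

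Among genes of G1, all 3 D-type cyclins, which couple growth signals to the start of the cycle, rose. Ccnd1 went from 231 and 234 CPM (Dor WT) to 284 and 292 CPM (Dor cKO), a rise of 0.31 (SE 0.03, adjusted p = 4.4e-10). Ccnd2 rose by 0.40 (SE 0.04), from 109 and 107 to 139 and 145 CPM, and Ccnd3 by 0.32 (SE 0.03), from 146 and 144 to 180 and 182 CPM. Their kinase partner Cdk4 fell by 0.25 (SE 0.04), from 154 and 147 to 127 and 125 CPM. In the list of 30 G1 cyclin, CDK, RB and E2F genes, 5 rose (16.7%) and 3 fell (10%), with a median of 0.00. These shares were near those of all genes (14.3% and 13.4%). Among 19 CDK inhibitor and exit genes, 7 rose and 2 fell, with a median of 0.09, and the share that rose (36.8%) was above the 14.3% of all genes. Both lists were chosen with earlier results of these data known, so the shares are a description.

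Cdkn1a, which encodes the CDK inhibitor p21, rose from 53 and 56.1 CPM (Dor WT) to 76.8 and 72.4 CPM (Dor cKO), by 0.45 (SE 0.06, adjusted p = 2.76e-07), 1.37-fold. Gas1, a growth arrest gene expressed at the cell surface, rose by 0.48 (SE 0.03), from 158 and 153 to 223 and 212 CPM, and Cdkn1c, which encodes the inhibitor p57, by 0.20 (SE 0.04), from 128 and 125 to 140 and 151 CPM. Ccng1, a p53-responsive cyclin gene, fell by 0.16 (SE 0.04), from 108 and 112 to 98.2 and 99.1 CPM, and after removal of the length and GC trend its difference was 0.0087. Cdkn1a and Gas1 were the 2 of these named genes that passed in all 16 alternatives. Ccnd1 and Ccnd3 passed in 15 of 16, and the exception was the coefficient of variation set at 0.1 (adjusted p = 0.187 and 0.162). That setting also ended the calls of Ccnd2 (adjusted p = 0.0647), Cdk4 (0.312), Cdkn1c (0.485) and Ccng1 (0.61). Limma on log2(TPM + 1) did not call Ccnd2 (adjusted p = 0.137), Cdk4 (0.118), Cdkn1c (0.396) or Ccng1 (0.136), and DESeq2 did not call Ccng1 (adjusted p = 0.0556).

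**Figure D5:**
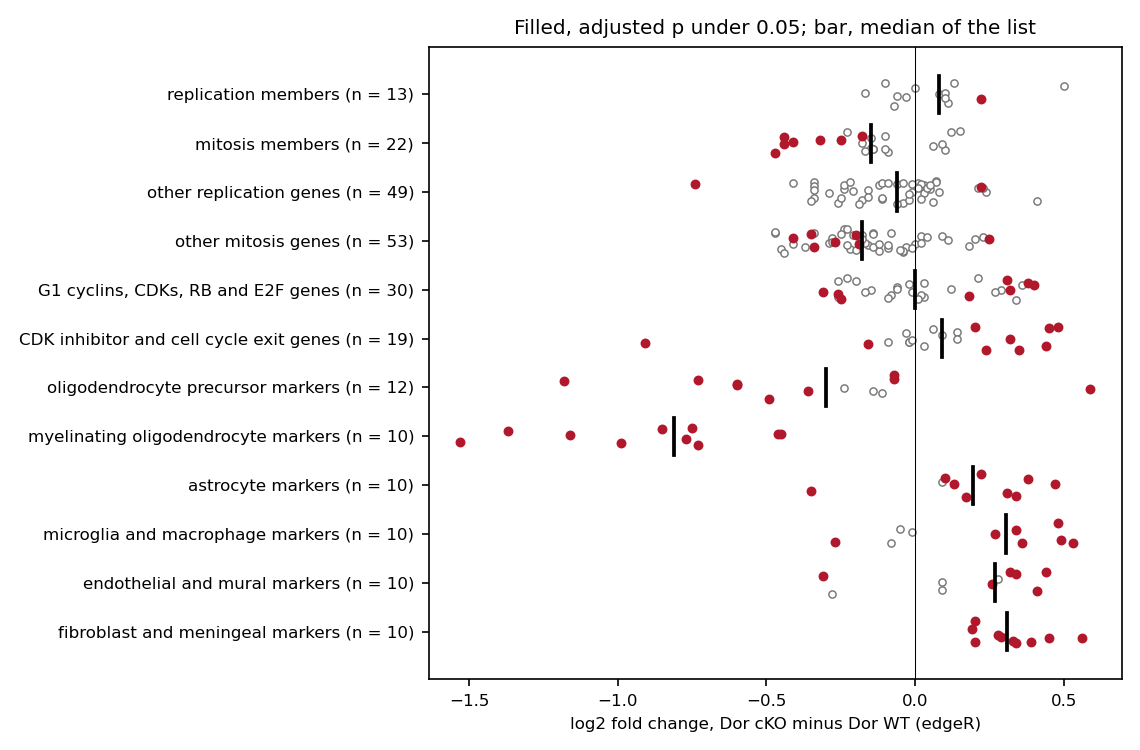
Log2 fold change (horizontal axis, Dor cKO minus Dor WT) of every tested gene of the 2 member sets, 4 other cell cycle lists and 6 cell type lists, with filled points past an edgeR adjusted p of 0.05 and a bar at each median. The mitosis median lies at -0.15 and that of precursor markers at -0.30, while astrocyte, microglia, vascular and fibroblast medians lie above 0.

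Several measures of tissue makeup and library quality moved with genotype. Of 12 oligodendrocyte precursor markers, 8 fell and 1 rose, against 13.4% and 14.3% of all genes, with a median of -0.30, and their summed TPM was 693 and 696 across Dor WT versus 512 and 488 across Dor cKO. Within that list Pdgfra, a receptor that marks precursors, had 92.5 and 87.4 TPM across Dor WT versus 84.4 and 79 TPM across Dor cKO (log2 difference -0.07 on counts, adjusted p = 0.044). Of 10 myelinating oligodendrocyte markers, 10 fell. In the lists of other cells that can divide, more markers rose than fell. Of 10 fibroblast and meningeal markers, 10 rose. Of 10 markers each, 8 astrocyte, 6 microglia and macrophage and 5 endothelial and mural markers rose, and 1 fell in each of these 3 lists. Of 10 neuron markers 1 rose and 2 fell, and of 9 tested T, B and blood cell markers 2 rose and 1 fell. Markers of neighbouring brain tissue were present: of 17 pituitary and hypothalamus markers, 8 of the 13 tested fell and 1 rose, with summed TPM of 1882 and 1999 across Dor WT versus 1715 and 1787 across Dor cKO. The pituitary hormone gene Cga had 53.6 and 58.7 TPM in Dor WT and was listed at 0 in both Dor cKO libraries, while Avp, from the hypothalamus, had 1519 and 1635 TPM across Dor WT versus 1477 and 1545 TPM across Dor cKO. The part of these cell types in the mitosis result was not tested.

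Mean fragment lengths were 259.6 and 260.0 bases in Dor WT and 245.5 and 245.3 bases in Dor cKO. The mitosis members that fell had a median length of 3030 bases and a GC content of 45.6%, against 2700 bases and 49.5% for those that did not pass and 2794 bases and 50.6% for replication members. Across the 35 members, which share these libraries, fold change and GC content had a Spearman rho of 0.40 (Pearson r 0.35) and fold change and length one of -0.14 (r -0.13). Exons of 9 members overlap a gene on the opposite strand, and whether counting used the strand is not given in the sources used here. Among the members that fell these are Nusap1 (172 bases, with Oip5) and Prc1 (911 bases, with Rccd1), whose partners had 205 and 410 counts over the 4 libraries against 1324 and 1934 for the members. The part of fragment length, GC content and strand in these results was not tested beyond the trend removal given above.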

How the data were processed

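Expected counts and TPM were taken from the gene tables deposited by the authors, 1 per library, which per the file headers are RSEM output. RSEM 1.3.1, STAR 2.7.9a, Trimmomatic 0.36 and the build GRCm38 are listed in the submitters' processing notes, without roles. Their annotation is not given in the sources used here. RSEM divides a read that matches several genes among them, so an expected count need not be whole. RSEM's posterior SD exceeded 1% of the count in some library for 2 members, Gins2 and Kif20a.

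Counts were rounded, filtered with filterByExpr of edgeR 4.0.16 (minimum count 10, minimum total 15), scaled by TMM and compared by the robust quasi-likelihood test with genotype as sole covariate. P-values were adjusted by Benjamini-Hochberg over 16751 genes, and calls use a limit of 0.05. The SE is the fold change over the square root of F. CPM values use TMM-scaled totals, and a floor of 3 counts was 0.139 to 0.174 CPM. Within groups, counts differed more than sampling gives (mean chi-square per degree of freedom 2.64 and 2.17), so no library was counted as a copy. Symbols came from GENCODE M21 (55141 of 55401 identifiers).

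Members, lists, promoter words and tests were chosen with earlier results of these data known. Values per library were printed for called members, the 3 most abundant members of each phase, Mki67, Pcna, Top2a and Cdk1, and, from each other cell cycle list, up to 4 called genes of highest CPM; further members were given values to account for all 35. Alternatives were DESeq2 1.42.0, RLE and total count scaling, no filter and a minimum of 1 CPM in 2 libraries, limma 3.58.1 on log2(TPM + 1) and log2(TPM + 0.1), a replicate block, leaving out each library, a coefficient of variation of 0.1, removing a length trend, leaving out mitochondrial and haemoglobin genes, leaving out Ccna2, Cdk1, Top2a, Rrm2 and Uhrf1, and an adjusted p under 0.01. The joint length and GC trend was added after seeing the data.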

Additional observations from a re-analysis of the deposited data

How the results depend on the processing

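No mitosis member rose and no replication member fell in any alternative. Among alternatives that kept every library, the count of mitosis members that fell was 4 with DESeq2 and 1 with the coefficient of variation at 0.1. It was 3 with limma on log2(TPM + 1) or log2(TPM + 0.1). It was 5 after removal of the length and GC trend and at an adjusted p under 0.01, and 6 with members at the border of the phases left out. The count of replication members that rose was, among these alternatives, 0 with DESeq2, both limma fits and the coefficient of variation at 0.1. At an adjusted p under 0.01 it was also 0, and after removal of the length and GC trend it was 2. Members whose calls ended when a library was dropped are named above. Of all genes, 17.4% were called in either direction with DESeq2, 8.52% and 8.49% with the limma fits and 9.52% with the coefficient of variation at 0.1. That share was 26% after removal of the length and GC trend and 27.7% in the main fit. With the coefficient of variation at 0.1, 5.32% of all genes fell, and 1 of 22 mitosis members did. The mitosis median was -0.17 with total count scaling, -0.18 and -0.20 with limma at pseudocounts of 1 and 0.1, -0.09 after removal of the length and GC trend, and -0.18 to -0.14 without 1 library. The replication median turned to -0.01 with both limma fits, was 0.05 after removal of the length and GC trend, and ranged from -0.01 to 0.11 without 1 library. The cause was not tested.

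Differences of members that had not passed, and of Ccng1, turned as follows. With limma at pseudocounts of 1 and 0.1, Mcm2 had -0.019 and -0.021, Mcm3 0.054 and 0.059, Gins2 -0.093 and -0.092, Plk1 -0.041 and -0.045 and Bub1 0.033 and 0.045. After removal of the length and GC trend, Pcna had 0.026, Rrm2 0.046, Bub1 0.04 and Ccng1 0.0087, and without a filter Rrm2 had 0.0053. Without 1 library, the difference ranged over -0.22 to 0.20 for Cdt1, -0.033 to 0.034 for Rrm2, -0.077 to 0.28 for Uhrf1, -0.28 to 0.13 for Bub1, -0.086 to 0.25 for Bub1b, -0.04 to 0.27 for Ube2c and -0.36 to 0.064 for Cenpe. The Trp53inp2 call was lost with limma (-0.28 at both pseudocounts, adjusted p = 0.0719 and 0.0728) and at a coefficient of variation of 0.1 (-0.36, adjusted p = 0.111). Replicate numbers did not pair the libraries (deviations from the group means of same-numbered libraries had r = -0.0177 across genes), and with the replicate block 7 mitosis members fell and 1 replication member rose, as without it. Over all genes, 2399 rose and 2248 fell, against 1539 and 1383 with DESeq2, 690 and 738 or 684 and 738 with limma, and 703 and 891 with the coefficient of variation at 0.1. Low counts limit the precision for members such as Cdc6 (SE 0.23) and Cdt1 (SE 0.19).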

Other observations

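The MCM subunit genes were not at equal levels per length. In each of the 4 libraries Mcm7 was highest and Mcm3 lowest of the 6, with a ratio of TPM of 3.8 and 3.45 across Dor WT versus 3.11 and 2.8 across Dor cKO. Mcm7 had 38.8 and 39.9 TPM across Dor WT versus 35.3 and 31.6 TPM across Dor cKO. Exons pooled over all annotated transcripts of Mcm7 hold 2 microRNA genes on the same strand, Mir25 and Mir93. They also overlap Ap4m1 and Cops6 on the opposite strand. Pooling does not show that the microRNAs are exonic in the main transcript. The level of Mki67 over that of Pcna, in TPM, was 0.129 and 0.124 across Dor WT versus 0.107 and 0.107 across Dor cKO. Ccnd1 over Ccnb1 was 5.13 and 5.03 across Dor WT versus 9.18 and 9.61 across Dor cKO. These ratios were chosen after the values were seen and carry no test.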
